A study of Mus musculus with 27 samples.

Results

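The complement genes described here are C3, Cfb, C1qa, C1qb, C1qc, C3ar1, C5ar1, Cfp and Serping1, measured in bone marrow derived macrophages (BMDMs) of the mouse after toll-like receptor (TLR) stimulation. Probes were taken by their gene name in the array's own annotation. This gave 9 genes and 11 probes, of 34844 names and 55681 non-control probes on the array. C3 and Serping1 each had 2 probes, and the probe with the higher mean signal stands for the gene. All 9 genes passed the filter on dim probes in all 12 comparisons, through the probe that stands for them.

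Complement is a set of plasma proteins that mark microbes and dying cells for uptake and draw in leukocytes. C1q, built from the A, B and C chains, starts the classical pathway, whereas C3 is the protein on which all pathways converge and factor B (Cfb) joins C3b to form the C3 convertase of the alternative pathway. Macrophages make C1q, C3, factor B and properdin themselves, and sense the cleaved fragments C3a and C5a through the receptors C3ar1 and C5ar1.

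All cells were BMDMs of wild-type female C57BL/6 mice aged 6 to 8 weeks, grown for 7 days in L929-conditioned medium. Naïve cells received no ligand, acute cells received 1 ligand for 4 h, and re-stimulated cells received that ligand for 24 h, were washed, and received it again for 4 h. The ligands were LPS (100 ng/ml, TLR4), Pam3CSK4 (100 ng/ml, TLR2), Poly(I:C) (10 µg/ml, TLR3) and CpG DNA (TLR9), for which the labels give 100 µM and the study's methods a lower concentration. Each of the 9 groups had 3 arrays of total RNA on a 1-colour 60-base oligonucleotide platform, but 2 arrays (replicate 3 of LPS re-stimulated and replicate 2 of Pam3CSK4 acute) failed quality control and carry no deposited values, which left 25.

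Several properties of the arrays bear on the results. The 7 macrophage markers (Emr1, Csf1r, Cd68, Fcgr1, Mertk, Cd14 and Lyz2) were well above background on all 25 arrays, and the mean log2 signal of the list lay between 14.83 and 15.63 on every array. The 7 neutrophil markers did not behave alike over replicates. Their mean log2 signal was 10.73 to 13.17 in replicates 1 and 2 of the naïve, re-stimulated, CpG acute, Pam3CSK4 acute and Poly(I:C) acute groups, but 5.61 to 7.55 in replicate 3 of these groups and in all 3 LPS acute arrays. Elane, Camp and S100a8 were well above background on all 25 arrays, Ly6g and Mpo on 16, Ngp on 17 and S100a9 on 22. The list mean hides members that differed: Elane stayed between 11.08 and 12.73 on all arrays, and on replicate 3 of CpG and Pam3CSK4 re-stimulated cells S100a8 (14.83 and 15.66) was above replicates 1 and 2 and Camp (10.79 and 10.45) was near them, whereas Ly6g, Mpo, Ngp and S100a9 were lower there than in replicates 1 and 2. LPS acute arrays also lay on 3 slides that held no other group and were scanned on 2 separate days. Their scanner headers named a grid design that no other array had. Slide, scan day, grid design and the acute LPS response therefore cannot be told apart. The same holds for any comparison of LPS re-stimulated with LPS acute cells. There the neutrophil list mean was 11.04 to 11.38 on the re-stimulated arrays and 5.61 to 6.08 on the acute arrays. The other groups shared 3 slides, with the replicate number as the slide. Naïve replicate 3 had 74.6% of probes well above background, against 42.1 to 54.3% on the other arrays with deposited values. In these bulk samples, fewer cells of a type and less RNA per cell cannot be told apart.

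**Figure D1:**
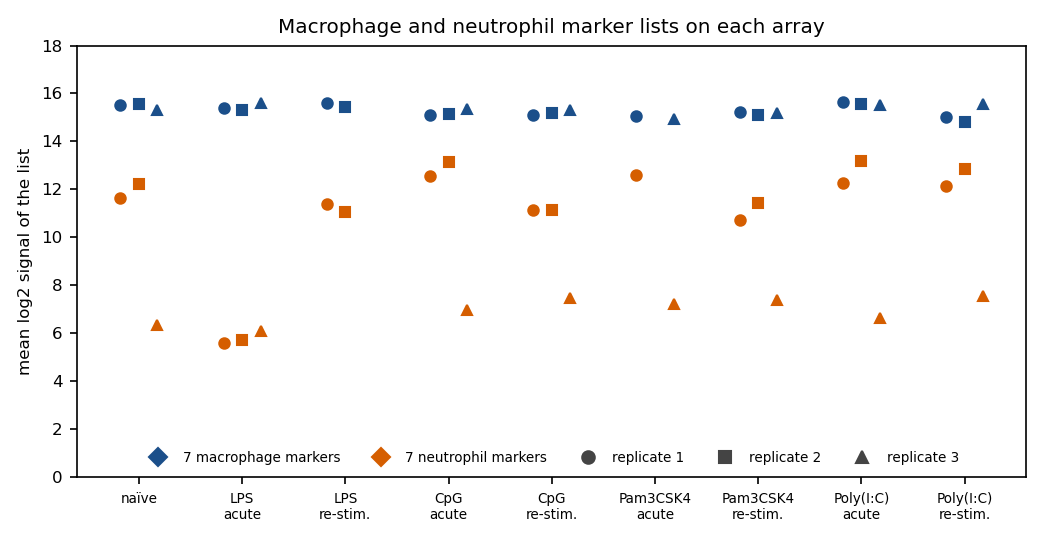
Mean log2 signal (y axis) of 7 macrophage and 7 neutrophil markers on each of 25 arrays, by group (x axis), with symbols for the replicate. The macrophage list sits between 14.83 and 15.63 on every array, and the neutrophil list sits at 5.61 to 7.55 in every replicate 3 and in all LPS acute arrays but at 10.73 to 13.17 elsewhere.

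Values below are the log2 signals that the authors normalized over the arrays, and changes are differences of group means on this log2 scale. A gene was called where limma's adjusted p (Benjamini-Hochberg over all probes tested in that comparison) was under 0.05 and the change at least 1.5-fold. Factor B was called higher in 10 of the 12 comparisons, among them re-stimulated against acute cells for each ligand except Pam3CSK4. With Pam3CSK4, no probe tested was called in acute against naïve or in re-stimulated against acute cells. Factor B was the member with the widest range over the groups (9.81 on the log2 scale between the lowest and highest group mean). C3 was above the naïve mean in every stimulated group but was called in only 2 comparisons. The 3 C1q chains, C5ar1 and Serping1 were called in acute LPS, and C3ar1 and Cfp in no comparison.

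After acute LPS, 3 of the 9 members rose (Cfb, C5ar1 and Serping1), where 13.2% of all probes tested were called higher. A further 3 fell (C1qa, C1qb and C1qc), where 13.2% of all probes were called lower. After acute CpG, 1 member rose (Cfb, against 3.09% of all probes) and 0 fell (against 2.63%). At an unadjusted p under 0.05 there were 5 members and 6477 of the 27954 probes tested. After acute Poly(I:C), 1 rose (Cfb again, against 3.8%) and 0 fell (against 2.23%). At that unadjusted p there were 3 members and 6335 of 28426 probes. With 2 Pam3CSK4 acute arrays, limma called 0 members and 0% of all 27843 probes tested in either direction. At an unadjusted p under 0.05 it gave 2 members and 3458 probes, and the smallest adjusted p of any probe was 0.288.

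Re-stimulated cells had 24 h of ligand before the last 4 h, and no group had the 24 h alone, so that the longer first exposure and the second exposure cannot be told apart. Against acute cells, LPS re-stimulation raised 2 members (C3 and Cfb, against 17.2% of all probes called higher) and lowered 0 (against 17%). CpG raised 1 (Cfb, against 1.85%) and lowered 0 (against 1.71%), and Poly(I:C) raised 1 (Cfb, against 2.31%) and lowered 0 (against 2.62%). For Pam3CSK4, limma again called 0 members and 0% of probes in either direction, with 5 members and 3461 probes at an unadjusted p under 0.05. At that unadjusted p there were 3 members with LPS, 4 with CpG and 4 with Poly(I:C). Of all probes tested, 13250 of 28592, 5572 of 25739 and 7100 of 27139 were under it.

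Against naïve cells, re-stimulation with LPS raised 1 member (Cfb, against 3.27% of all probes) and lowered 0 (against 2.39%). At an unadjusted p under 0.05 there were 6 members and 7351 of 27915 probes. Re-stimulation with CpG raised 1 (Cfb, against 6.65%) and lowered 1 (C1qc, against 6.45%). With Pam3CSK4, 1 rose (Cfb, against 2.61%) and 0 fell (against 2.74%), with 6 members and 7079 of 27945 probes at an unadjusted p under 0.05. Poly(I:C) raised 2 (C3 and Cfb, against 4.79%) and lowered 0 (against 4.23%), with 5 members and 7901 of 28411 probes at an unadjusted p under 0.05. These comparisons and the acute ones share the naïve arrays.

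**Figure D2:**
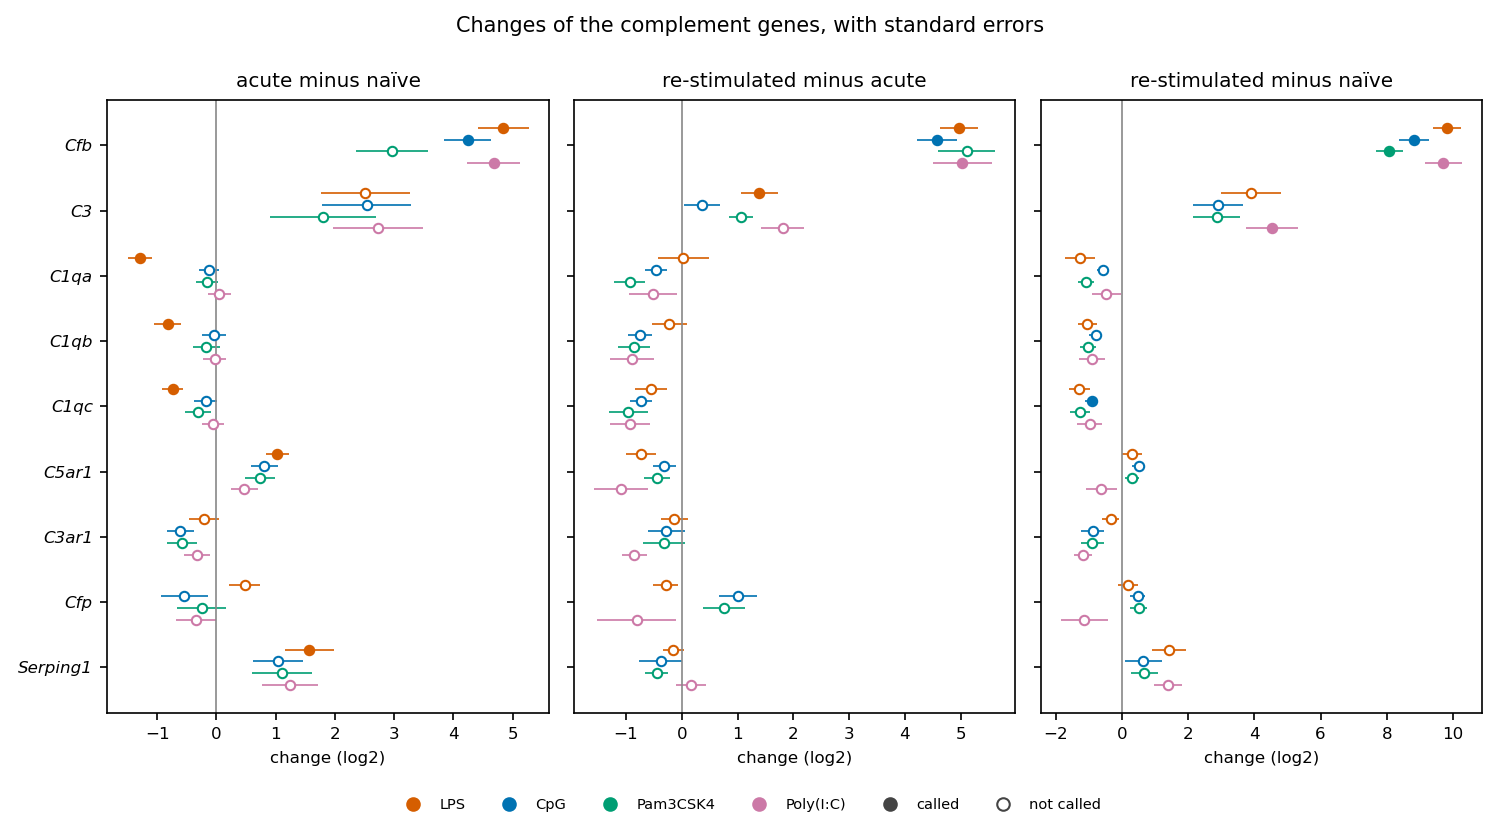
Change on the log2 scale (x axis) of each of the 9 complement genes (y axis) for the 4 ligands (colours), with standard errors as bars and filled points for called changes, in 3 panels (acute minus naïve, re-stimulated minus acute, re-stimulated minus naïve). Cfb changes lie to the right of 0 in every panel, at 2.96 to 4.84, 4.57 to 5.11 and 8.07 to 9.82, whereas C1qb and C1qc lie to the left of 0 for every ligand (with scaling to array medians, 5 and 3 of their 12 changes lie to the right).

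Factor B, the serine protease of the alternative pathway convertase, had the largest changes of the 9 genes. It was read by 1 probe with 60 bases aligned to chr17:34993502-34993858 (mm9, minus strand), a span of 357 genomic bases. The sequence is shown because this probe carries the change common to the 4 ligands.
Cfb probe: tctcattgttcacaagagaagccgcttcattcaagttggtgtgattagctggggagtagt
Its log2 signal was 5.67, 6.04 and 6.98 in the naïve replicates, well above background on each array. It was 11.09, 10.51 and 11.61 after acute LPS, and 10.01, 10.63 and 10.77 after acute CpG. After acute Pam3CSK4 it was 9.92 and 8.45, and after acute Poly(I:C) 11.37, 11.15 and 10.22. Every acute array lay above every naïve array.

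In the re-stimulated groups the factor B signal was higher again. It was 16.17 and 15.92 with LPS and 14.39, 15.11 and 15.62 with CpG. It was 14.72, 13.79 and 14.38 with Pam3CSK4, and 16.24, 16.68 and 14.91 with Poly(I:C). Every re-stimulated array lay above every acute array of its ligand, and none was saturated. In the order of group means (naïve 6.23, Pam3CSK4 acute 9.19, CpG acute 10.47, Poly(I:C) acute 10.91, LPS acute 11.07, then Pam3CSK4, CpG, Poly(I:C) and LPS re-stimulated at 14.30, 15.04, 15.94 and 16.04), 5 of the 8 neighbouring pairs of groups overlapped. The 3 that did not overlap were naïve and Pam3CSK4 acute, Pam3CSK4 acute and CpG acute, and LPS acute and Pam3CSK4 re-stimulated.

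**Figure D3:**
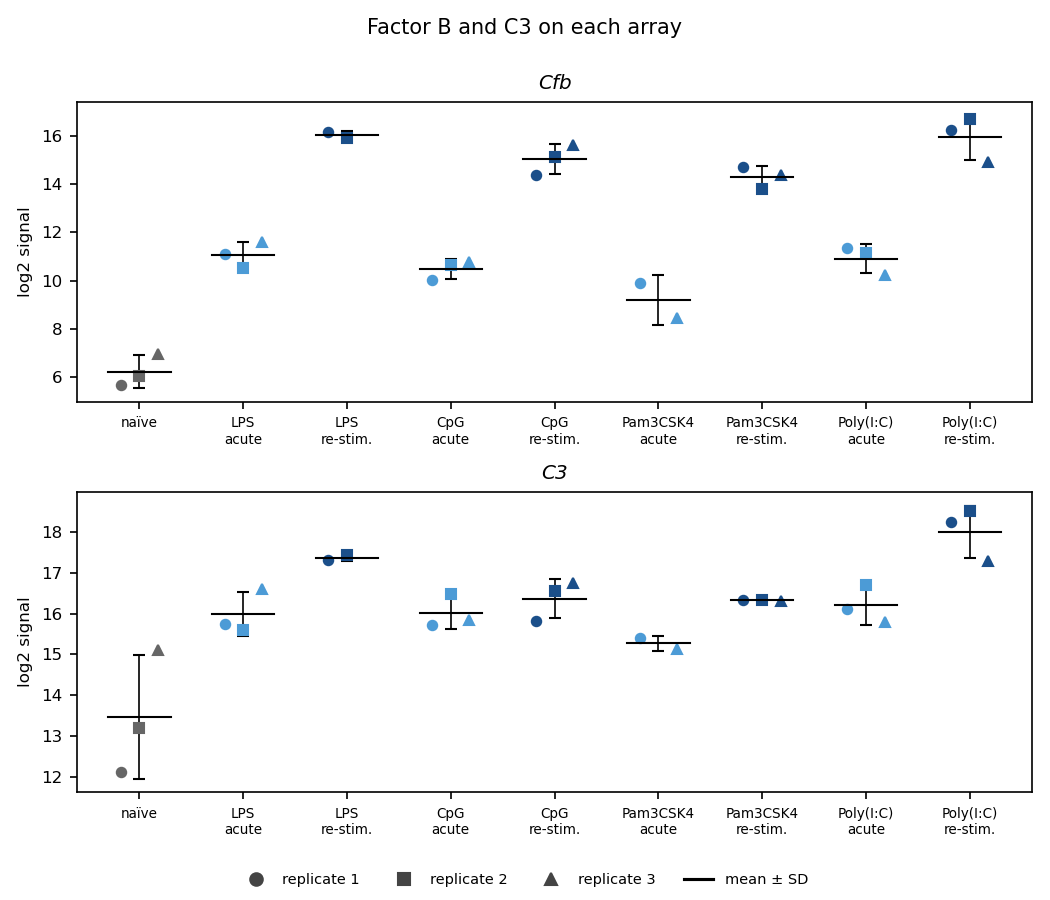
Log2 signal (y axis) of Cfb and C3 on each array by group (x axis), with symbols for the replicate and lines for the mean ± SD (n = 3 per group, 2 for LPS re-stimulated and Pam3CSK4 acute). Cfb steps from a naïve mean of 6.23 through acute means of 9.19 to 11.07 to re-stimulated means of 14.30 to 16.04, and naïve replicate 3 stands at 15.11 for C3, above the other naïve replicates at 12.12 and 13.18.

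Acute stimulation raised factor B 28.7-fold with LPS (log2 change 4.84 ± 0.43, SE, adjusted p = 0.00123), 18.9-fold with CpG (4.24 ± 0.40, adjusted p = 0.00873) and 25.7-fold with Poly(I:C) (4.68 ± 0.45, adjusted p = 0.00788). The Pam3CSK4 value was 7.77-fold (2.96 ± 0.61, adjusted p = 0.288). Re-stimulated cells were above acute cells by 31.4-fold with LPS (4.97 ± 0.34, adjusted p = 0.000524), 23.7-fold with CpG (4.57 ± 0.36, adjusted p = 0.00914) and 32.7-fold with Poly(I:C) (5.03 ± 0.53, adjusted p = 0.0194). For Pam3CSK4 the value was 34.6-fold (5.11 ± 0.51, adjusted p = 0.128). The LPS step crosses slides, scan days and grid designs, and their part in it was not tested. Re-stimulated cells thus differed from naïve cells by 901-fold (LPS, adjusted p = 0.00796), 449-fold (CpG, adjusted p = 0.0014), 269-fold (Pam3CSK4, adjusted p = 0.00537) and 840-fold (Poly(I:C), adjusted p = 0.00264).

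With CpG, Pam3CSK4 and Poly(I:C), the acute factor B difference was smaller in replicate 3, where the neutrophil list mean was low in both arrays. With LPS, where all acute arrays had low list means, it was 5.42, 4.47 and 4.63 in replicates 1, 2 and 3. Acute minus naïve was 4.34, 4.59 and 3.80 in replicates 1, 2 and 3 with CpG, 4.26 and 1.47 in replicates 1 and 3 with Pam3CSK4, and 5.70, 5.11 and 3.24 with Poly(I:C). Re-stimulated minus acute was 4.38, 4.48 and 4.85 with CpG, 4.80 and 5.93 with Pam3CSK4, and 4.87, 5.54 and 4.69 with Poly(I:C). The part of the neutrophil markers in these differences was not tested. With naïve replicate 3 as the only naïve array, acute LPS gave a log2 change of 4.09 (adjusted p = 0.0063, with the lone array assumed to vary as the others).

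The factor B calls differed in how far they held when 1 array was left out. The LPS acute and both CpG re-stimulated calls, the LPS re-stimulated against acute call and the Poly(I:C) re-stimulated against naïve call held under each alternative tried. The acute CpG call was lost without naïve replicate 2 (adjusted p = 0.0539) or CpG acute replicate 2 (0.0612), and the acute Poly(I:C) call without Poly(I:C) acute replicate 2 (0.0539). Poly(I:C) re-stimulated against acute was lost without acute replicate 1 (0.0785) or 2 (0.0739) and without re-stimulated replicate 1 (0.0775) or 2 (0.0743). LPS re-stimulated against naïve was lost without either re-stimulated array (0.159 and 0.22), where the lone remaining array is assumed to vary as the naïve arrays do. In Pam3CSK4 re-stimulated against naïve cells, a fit blocked on the replicate number gave adjusted p = 0.0546. The acute and the re-stimulated against acute Pam3CSK4 changes, not called with 2 acute arrays, were each called under 4 of 16 alternatives. Among these were the fit of all 9 groups (adjusted p = 0.00395 and 0.000257) and scaling to array medians (0.0263 and 0.0112).

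C3, the central component that all pathways cleave, was high already in naïve cells and varied most there. Its log2 signal was 12.12, 13.18 and 15.11 in the naïve replicates, and naïve replicate 3 was the highest. After acute stimulation it was 15.75, 15.60 and 16.60 with LPS and 15.72, 16.47 and 15.84 with CpG. With Pam3CSK4 it was 15.39 and 15.14, and with Poly(I:C) 16.12, 16.71 and 15.79. All acute arrays were above all naïve arrays, but the Pam3CSK4 array at 15.14 exceeded naïve replicate 3 by no more than 0.03.

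Re-stimulated cells held C3 at 17.31 and 17.44 with LPS and at 15.81, 16.55 and 16.75 with CpG. They held it at 16.34, 16.34 and 16.30 with Pam3CSK4 and at 18.24, 18.51 and 17.29 with Poly(I:C). The CpG arrays overlapped their acute group and the other ligands' arrays did not. A second C3 probe, at chr17:57343678-57343737 (mm9, minus strand), is shown because it read the same gene elsewhere and gave the same order of naïve and Poly(I:C) arrays, from 11.80, 12.80 and 14.54 in naïve to 17.65, 17.76 and 16.47 in Poly(I:C) re-stimulated cells.
C3 second probe: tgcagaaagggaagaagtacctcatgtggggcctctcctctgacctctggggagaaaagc

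Of the C3 changes, 2 were called. C3 rose 2.62-fold from acute to re-stimulated LPS (log2 change 1.39 ± 0.33, adjusted p = 0.0223) and 23.3-fold from naïve to Poly(I:C) re-stimulated cells (4.54 ± 0.79, adjusted p = 0.0256). The former compares arrays on different slides, scan days and grid designs. The second probe was called in the latter (4.25, adjusted p = 0.0264) and not in the former (1.34, adjusted p = 0.0595). The acute changes were 2.51 ± 0.75 with LPS (adjusted p = 0.0525), 2.54 ± 0.75 with CpG (0.111), 1.80 ± 0.90 with Pam3CSK4 (0.49) and 2.73 ± 0.76 with Poly(I:C) (0.102). From acute to re-stimulated cells C3 changed by 0.36 ± 0.32 with CpG (0.566), 1.06 ± 0.21 with Pam3CSK4 (0.192) and 1.81 ± 0.39 with Poly(I:C) (0.0536), the last of these 2.17 (0.0189) without re-stimulated replicate 3.

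The C3 calls against naïve cells depended on naïve replicate 3 and on the fit. Without that array, acute LPS gave 3.33 (adjusted p = 0.00211), acute CpG 3.36 (0.0118) and acute Poly(I:C) 3.55 (0.0124), and re-stimulation gave 4.72 with LPS (0.00284), 3.72 with CpG (0.00305) and 3.68 with Pam3CSK4 (0.00455). With it, the fit of all 9 groups also called C3 after acute LPS (0.000987), CpG (0.00257) and Poly(I:C) (0.00141). C3 was likewise called there after re-stimulation with LPS (0.000234), CpG (0.000774) and Pam3CSK4 (0.00108). That fit takes 1 spread for all groups, whereas the C3 SD was 1.52 in naïve cells and 0.03 to 0.64 in the others. Its p-values therefore do not measure the naïve spread. The same 6 changes were called with scaling to array medians (adjusted p up to 5.27e-05), and those of acute LPS and of re-stimulation with LPS, CpG and Pam3CSK4 with normexp (0.0315, 0.0243, 0.0255 and 0.0354). Within replicate 3, acute minus naïve C3 was 0.72 (CpG), 0.03 (Pam3CSK4) and 0.67 (Poly(I:C)), against 3.27 to 4.00 in replicate 1 for these ligands. With naïve replicate 3 as the only naïve array, acute LPS gave a C3 change of 0.87, against 2.51 with all 3 naïve arrays. The neutrophil list was at 6.36 on naïve replicate 3 and at 11.65 and 12.23 on naïve replicates 1 and 2. The part of the neutrophil list in the C3 difference was not tested. With the replicate number as a block, Poly(I:C) re-stimulated C3 against naïve had adjusted p = 0.0704, against acute 0.0373, and CpG re-stimulated C3 against naïve 0.0448. The LPS re-stimulated against acute call was lost when any 1 of LPS acute replicates 1 and 2 or LPS re-stimulated replicates 1 and 2 was left out (adjusted p = 0.0537, 0.0556, 0.0832 and 0.11). The call in Poly(I:C) re-stimulated cells needed each of naïve replicates 1 and 2 and re-stimulated replicates 1 and 2, with adjusted p = 0.0648, 0.0896, 0.1 and 0.102 without them.

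The 250 bases before the RefSeq start of C3, at chr17:57228137-57228386 (GRCm38.p6, minus strand), are printed because C3 had the second widest range of group means among the members. RefSeq windows (GRCm38.p6) matched 6 of the 9 members, and none was used for Cfb, C1qa and Serping1. The windows were searched on both strands for the core of the interferon response element (GAAANNGAA), a STAT motif (TTCNNNGAA), the AP-1 motif (TGANTCA), the PU.1 core (GAGGAA) and the kappaB motif by name. Of 32851 windows of the same length, 7.13%, 7.02%, 6.75%, 23.3% and 7.25% held these motifs. Capitals mark a match in the windows printed here and below, and the C3 window held none of these letters, as did that of Cfp.
C3 window: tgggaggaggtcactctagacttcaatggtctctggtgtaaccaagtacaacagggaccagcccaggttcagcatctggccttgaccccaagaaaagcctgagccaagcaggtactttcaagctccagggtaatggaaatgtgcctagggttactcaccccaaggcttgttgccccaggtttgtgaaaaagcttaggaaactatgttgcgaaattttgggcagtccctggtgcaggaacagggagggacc

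The C1q chains, which together form the recognition molecule of the classical pathway, had the highest naïve means of any group or lay within 0.05 of it, and had lower means after acute LPS and after re-stimulation. C1qa read 15.62, 15.57 and 15.55 in naïve cells and 14.04, 14.25 and 14.59 after acute LPS. C1qb read 16.59, 16.54 and 16.26 in naïve cells and 15.43, 15.49 and 15.99 after acute LPS. C1qc read 16.30, 16.37 and 16.03 in naïve cells and 15.47, 15.45 and 15.55 after acute LPS. For each chain the acute LPS arrays lay wholly below the naïve arrays.

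Acute LPS lowered C1qa 2.45-fold (log2 change -1.29 ± 0.21, adjusted p = 0.00716), C1qb 1.77-fold (-0.82 ± 0.23, adjusted p = 0.0422) and C1qc 1.67-fold (-0.74 ± 0.18, adjusted p = 0.0289). After acute CpG, Pam3CSK4 and Poly(I:C) no chain changed by more than 0.31, with adjusted p from 0.626 to 0.955. The ligands were set against each other in 1 fit of all 9 groups. The acute C1qa change with LPS differed from that with CpG by -1.17 ± 0.36 (adjusted p = 0.0308) and from that with Poly(I:C) by -1.34 ± 0.36 (adjusted p = 0.0207). Its difference from Pam3CSK4 was close in size, -1.14 ± 0.40 (adjusted p = 0.0543), and was called under 5 alternatives. The LPS acute arrays are those with slides, scan days and a grid design of their own and with low neutrophil list means. The part of these in the C1q differences was not tested.

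With naïve replicate 3, the naïve array with low neutrophil markers, as the only naïve array, C1qa was lower after acute LPS by -1.26 (adjusted p = 0.0402), C1qb by -0.62 (0.222) and C1qc by -0.54 (0.178). The C1qb and C1qc calls were also lost without naïve replicate 1 (0.113 and 0.0859) or 2 (0.121 and 0.102), and without LPS acute replicate 1 (0.132 and 0.0924) or 2 (0.139 and 0.103). Scaling to array medians, which moved the median of all probes to 0.21, gave -0.74 (0.576) for C1qa, -0.35 (0.838) for C1qb and -0.24 (0.898) for C1qc. The C1qb and C1qc calls were lost too without the filter on dim probes (0.0932 and 0.0782), and the C1qc call in the fit of all 9 groups (0.0595).

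In re-stimulated cells the 3 chains were spread more widely between replicates. C1qa read 15.06 and 13.58 with LPS, 15.10, 14.73 and 15.17 with CpG, 14.55, 14.83 and 14.10 with Pam3CSK4, and 15.29, 14.18 and 15.85 with Poly(I:C). C1qc read 15.38 and 14.50 with LPS, 15.58, 15.15 and 15.23 with CpG, 14.86, 15.51 and 14.50 with Pam3CSK4, and 15.26, 14.54 and 15.94 with Poly(I:C). All re-stimulated C1qc arrays lay below all naïve C1qc arrays, and the same held for C1qb. Poly(I:C) re-stimulated replicate 3 was the highest re-stimulated array for each chain.

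**Figure D4:**
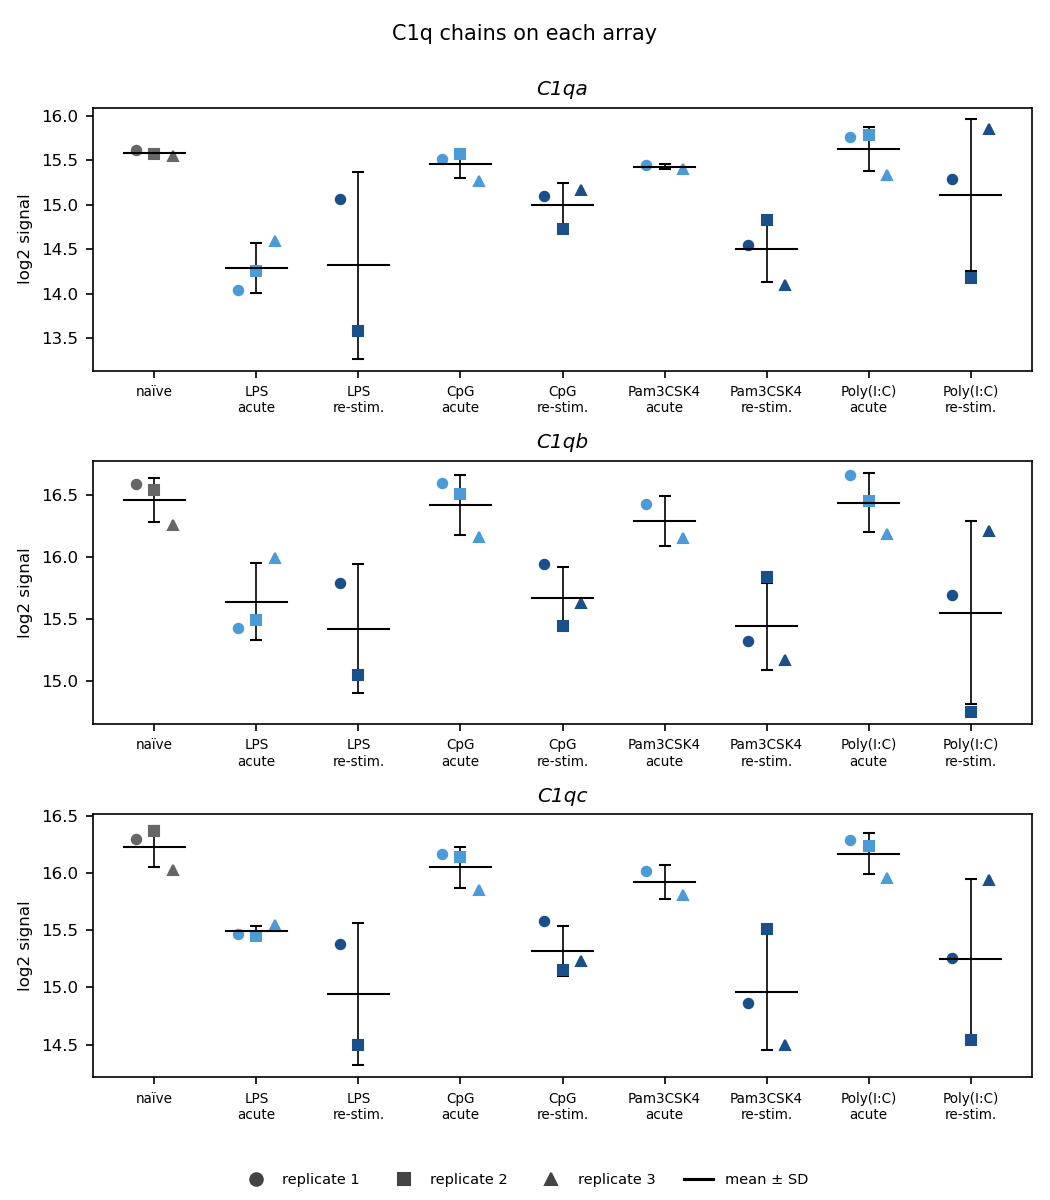
Log2 signal (y axis) of C1qa, C1qb and C1qc on each array by group (x axis), with symbols for the replicate and lines for the mean ± SD (n = 3 per group, 2 for LPS re-stimulated and Pam3CSK4 acute). The acute LPS arrays sit below the naïve arrays for each chain, and the Poly(I:C) re-stimulated arrays spread from 14.18 to 15.85 for C1qa.

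Only 1 of these re-stimulated changes was called, C1qc with CpG, which fell 1.88-fold against naïve (log2 change -0.91 ± 0.20, adjusted p = 0.0352). The C1qb changes against naïve were -1.05, -0.79, -1.02 and -0.91 for LPS, CpG, Pam3CSK4 and Poly(I:C), with adjusted p from 0.0543 to 0.193. Without naïve replicate 3, C1qb was called lower after re-stimulation with LPS (-1.15, adjusted p = 0.0432), CpG (-0.89, 0.0258) and Pam3CSK4 (-1.12, 0.0388). C1qc was then called lower with LPS (-1.39, 0.036) and Pam3CSK4 (-1.37, 0.0444), and C1qa with Pam3CSK4 (-1.10, 0.044). Without Poly(I:C) re-stimulated replicate 3, C1qc was called lower against acute (-1.27, 0.045). The fit of all 9 groups called C1qb and C1qc lower against naïve with LPS (0.0395 and 0.0121), Pam3CSK4 (0.0262 and 0.0069) and Poly(I:C) (0.039 and 0.0251). C1qa was called lower in that fit with LPS (0.0347) and Pam3CSK4 (0.0427). That fit takes 1 spread for all groups. In Poly(I:C) re-stimulated cells the SD was 0.74 (C1qb) and 0.70 (C1qc), against 0.18 for each in naïve cells. Poly(I:C) re-stimulated minus naïve was -0.90, -1.80 and -0.04 in replicates 1, 2 and 3 for C1qb. For C1qc it was -1.04, -1.83 and -0.08, with adjusted p = 0.153 in the fit of these groups alone. The C1qc call with CpG was lost without any 1 of naïve replicates 1 and 2 (adjusted p = 0.0989 and 0.116) or CpG re-stimulated replicates 1, 2 and 3 (0.0684, 0.121 and 0.106), and with the replicate number as a block (0.0645). Scaled to equal array medians in place of quantiles, the C1qc difference turned to 0.40 (adjusted p = 0.647), in a comparison where that scaling moved the median of all probes from 0.01 to 0.78. Over the alternatives tried, the C1qb change against naïve ran up to -0.31 with LPS, 0.50 with CpG, -0.16 with Pam3CSK4 and -0.06 with Poly(I:C). The C1qc change ran up to -0.51 with LPS, -0.39 with Pam3CSK4 and -0.08 with Poly(I:C). For C1qa these limits were -0.48 with LPS, 0.70 with CpG, -0.22 with Pam3CSK4 and 0.43 with Poly(I:C).

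The chains moved alike over the 9 group means, as a description over points that share arrays and normalization. Pearson's r was 0.98 between C1qb and C1qc, 0.883 between C1qa and C1qb and 0.851 between C1qa and C1qc. Their probes lie close together, at chr4:136452409-136452468 (C1qa), chr4:136445766-136445825 (C1qc) and chr4:136436578-136436637 (C1qb) on the minus strand of mm9. The C1qa and C1qb probes are shown as the sequences behind the acute LPS difference, and the windows before the C1qb and C1qc starts, chr4:136886201-136886450 and chr4:136892915-136893164 (GRCm38.p6, minus strand), because these chains had the closest group means.
C1qa probe: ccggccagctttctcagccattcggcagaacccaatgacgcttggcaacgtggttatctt
C1qb probe: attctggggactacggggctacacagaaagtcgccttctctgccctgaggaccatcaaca
C1qb window: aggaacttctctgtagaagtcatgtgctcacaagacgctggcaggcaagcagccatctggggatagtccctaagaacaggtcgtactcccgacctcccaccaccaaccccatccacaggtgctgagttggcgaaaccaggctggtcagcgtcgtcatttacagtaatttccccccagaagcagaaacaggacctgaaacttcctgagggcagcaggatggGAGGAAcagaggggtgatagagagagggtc
C1qc window: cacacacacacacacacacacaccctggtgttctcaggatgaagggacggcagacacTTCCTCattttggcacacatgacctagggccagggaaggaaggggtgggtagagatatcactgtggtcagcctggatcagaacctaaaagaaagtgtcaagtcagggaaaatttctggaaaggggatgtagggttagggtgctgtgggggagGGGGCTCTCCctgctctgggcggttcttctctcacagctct
The C1qb window held the PU.1 core 30 bases before the start. The C1qc window held it on the opposite strand 193 bases before the start and the kappaB motif 41 bases before the start. A match is a description of the letters and not of factor binding.

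The receptor for C5a, C5ar1, was higher after acute LPS. It read 13.35, 13.48 and 13.02 in naïve cells and 14.39, 14.37 and 14.19 after acute LPS, with no overlap. It rose 2.04-fold (log2 change 1.03 ± 0.20, adjusted p = 0.0133), and with naïve replicate 3 as the only naïve array by 1.29 (adjusted p = 0.0236). The call was lost without LPS acute replicate 1 (0.0551) or 2 (0.059), and with scaling to array medians (1.56, 0.0933). The acute changes with CpG, Pam3CSK4 and Poly(I:C) were 0.81 ± 0.23 (adjusted p = 0.0993), 0.74 ± 0.25 (0.352) and 0.47 ± 0.23 (0.314). No acute difference between ligands was called for C5ar1.

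After re-stimulation C5ar1 read 13.96 and 13.22 with LPS, 13.89, 13.81 and 13.65 with CpG, and 13.57, 13.72 and 13.47 with Pam3CSK4. The Poly(I:C) arrays were split, at 12.29, 11.95 and 13.74 for replicates 1, 2 and 3. The Poly(I:C) change from acute was -1.09 ± 0.48 (adjusted p = 0.213, and 0.034 in the fit of all 9 groups). Without re-stimulated replicate 3, the array of that group with low neutrophil markers (list mean 7.55, against 12.16 and 12.87), it was -1.63 (adjusted p = 0.0222), and against naïve -1.16 (0.0446). Without LPS re-stimulated replicate 1 the LPS change from acute was -1.09 (0.0459), against -0.73 (0.0808) with it, but this rests on 1 re-stimulated array, assumed to vary as the acute arrays do. The part of the neutrophil markers in the Poly(I:C) split was not tested. The window before the C5ar1 start, chr7:16259339-16259588 (GRCm38.p6, minus strand), is printed because C5ar1 was the receptor that was called, and it held the interferon response element core on the opposite strand 66 bases before the start.
C5ar1 window: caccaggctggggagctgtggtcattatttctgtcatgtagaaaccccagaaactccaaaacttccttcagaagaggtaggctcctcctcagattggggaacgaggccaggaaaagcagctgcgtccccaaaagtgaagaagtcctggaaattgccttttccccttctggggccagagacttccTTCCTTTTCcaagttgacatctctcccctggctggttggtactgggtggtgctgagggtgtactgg

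The receptor for C3a, C3ar1, was called in no comparison, and its change was below 0 in all 12, between -0.13 and -1.17, but above 0 in 8 of them with scaling to array medians, in 2 with the 75th percentile and in 1 with all 27 arrays. It read 13.92, 13.71 and 13.29 in naïve cells and 13.70, 13.12 and 13.46 after acute LPS, and these overlapped. It was lowest in Poly(I:C) re-stimulated cells, at 12.32, 12.21 and 12.86, all below the naïve arrays (log2 change -1.17 ± 0.27, adjusted p = 0.0504). Without naïve replicate 3 this change was -1.35 (adjusted p = 0.0265), and without Poly(I:C) re-stimulated replicate 3 it was -1.37 (adjusted p = 0.0365), with -1.05 (0.0254) against acute. The fit of all 9 groups, which takes 1 spread for all of them, called C3ar1 lower against naïve after re-stimulation with CpG (0.0398), Pam3CSK4 (0.0448) and Poly(I:C) (0.00861). Fits of the compared groups alone gave 0.152 with CpG and 0.18 with Pam3CSK4. The C3ar1 window held the AP-1 motif 22 bases before the start.

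**Figure D5:**
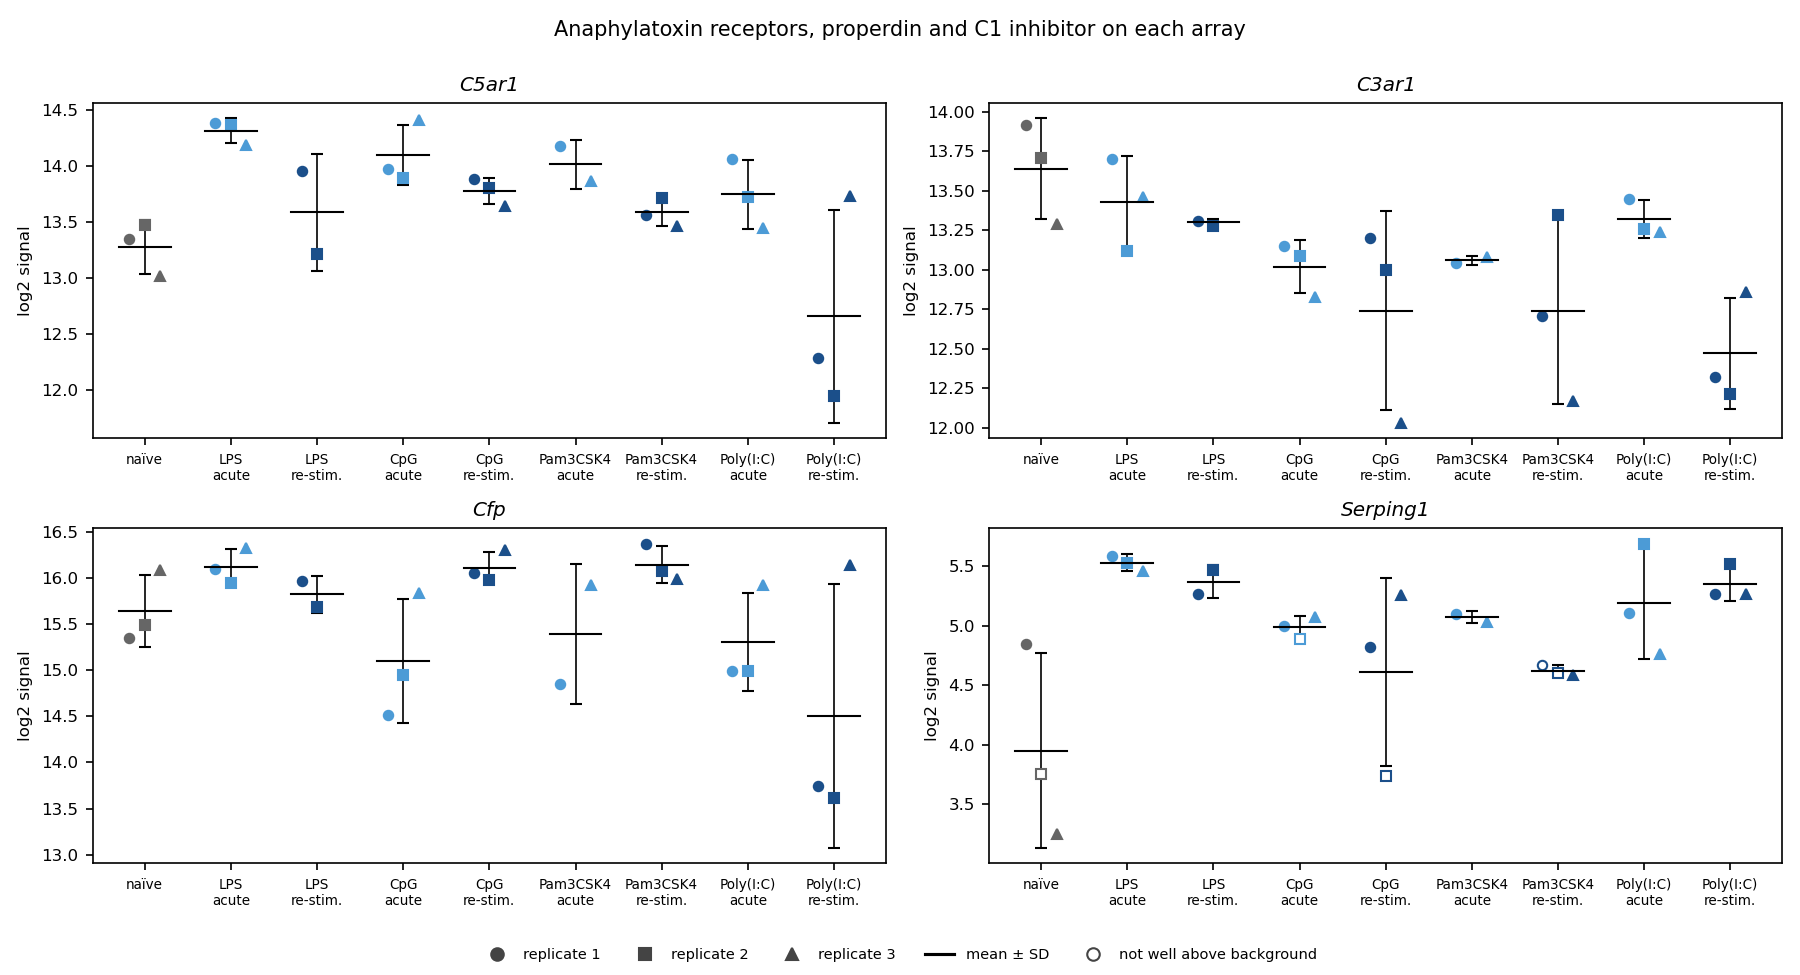
Log2 signal (y axis) of C5ar1, C3ar1, Cfp and Serping1 on each array by group (x axis), with symbols for the replicate, open symbols for spots not well above background and lines for the mean ± SD (n = 3 per group, 2 for LPS re-stimulated and Pam3CSK4 acute). C5ar1 stands at 14.19 to 14.39 after acute LPS against 13.02 to 13.48 in naïve cells, and Poly(I:C) re-stimulated replicate 3 stands apart for C5ar1 and Cfp.

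Properdin (Cfp), which stabilises the alternative pathway convertase, was called in no comparison. It read 15.35, 15.49 and 16.08 in naïve cells, and replicate 3 was also the highest acute array with each of the 4 ligands. The acute values were 16.09, 15.94 and 16.32 with LPS, 14.51, 14.95 and 15.83 with CpG, 14.85 and 15.92 with Pam3CSK4, and 14.99, 14.99 and 15.92 with Poly(I:C). The re-stimulated values were 15.96 and 15.68 with LPS, 16.05, 15.98 and 16.30 with CpG, 16.37, 16.07 and 15.99 with Pam3CSK4, and 13.74, 13.61 and 16.14 with Poly(I:C).

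From acute to re-stimulated cells, Cfp changed by 1.01 ± 0.34 with CpG (adjusted p = 0.156) and by 0.76 ± 0.37 with Pam3CSK4 (0.436). With LPS the value was -0.29 ± 0.22 (0.333) and with Poly(I:C) -0.81 ± 0.71 (0.513). The CpG and Poly(I:C) changes differed by 1.82 ± 0.71 (unadjusted p = 0.0186 from limma, adjusted p = 0.377). The Pam3CSK4 and Poly(I:C) changes differed by 1.57 ± 0.75 (adjusted p = 0.452). Without Poly(I:C) re-stimulated replicate 3, the outlying Cfp array of its group, these differences were 2.64 (adjusted p = 0.00916) and 2.39 (0.0217). Without replicate 3 of every group, left out after seeing the data, they were 2.60 and 2.69, the latter with a lone Pam3CSK4 acute array. Without Poly(I:C) re-stimulated replicate 3, Cfp was lower than in acute cells by -1.63 (adjusted p = 0.0419) and than in naïve cells by -1.96 (adjusted p = 0.0222). Without CpG acute replicate 3 the CpG step was 1.38 (0.0258). Without naïve replicate 3 Cfp was called higher after acute LPS (0.70, 0.037) and after CpG re-stimulation (0.69, 0.0389). The neutrophil list was low on each replicate 3 named here, and its part in the Cfp differences was not tested.

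C1 inhibitor (Serping1), which blocks the proteases C1r and C1s, was dim on every array. The probe at chr2:84605663-84605722 (mm9, minus strand) read 4.85, 3.75 and 3.25 in naïve cells and 5.59, 5.53 and 5.46 after acute LPS, and the naïve spot at 3.75 was not well above background. LPS raised it 2.98-fold (log2 change 1.57 ± 0.41, adjusted p = 0.0342). The call was lost without naïve replicate 2 (0.0977) or without LPS acute replicate 1, 2 or 3 (0.101, 0.102 and 0.0836), without the filter on dim probes (0.0608) and with scaling to array medians (0.0959). The change was 0.44 (0.0479, under the minimum fold) with normexp and 0.96 (0.128) with the 75th percentile scaling. The other acute changes were 1.04 with CpG, 1.11 with Pam3CSK4 and 1.24 with Poly(I:C), with adjusted p from 0.195 to 0.456. Re-stimulated values lay at 5.27 and 5.47 with LPS, 4.82, 3.74 and 5.26 with CpG, 4.67, 4.60 and 4.59 with Pam3CSK4, and 5.27, 5.52 and 5.27 with Poly(I:C). The Poly(I:C) change against naïve was 1.40 (0.0943), and 1.85 (0.0437) without naïve replicate 1. In the fit of all 9 groups Serping1 was called higher after acute CpG (0.0494) and Poly(I:C) (0.022). That fit also called it higher against naïve after re-stimulation with LPS (0.0172) and Poly(I:C) (0.00763). It takes 1 spread for all groups, whereas the Serping1 SD was 0.82 in naïve cells and 0.05 to 0.79 in the others. With the 75th percentile scaling 7 of the 12 Serping1 changes were below 0, against 3 in the values as reported. The other Serping1 probe, at chr2:84605968-84607474 (mm9), was well above background on naïve replicate 3 alone and was not tested.

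The ligands were compared pair by pair for both steps, with p-values adjusted over all probes in each pair. For the acute change, 3 of the 54 tests of a member in a ligand pair were called, the C1qa differences given above and a factor B change larger with LPS than with Pam3CSK4 by 1.88 ± 0.56 (adjusted p = 0.0238). The share of all probes called was 15.5% for LPS against CpG, 17.6% for LPS against Pam3CSK4, 10.7% for LPS against Poly(I:C), 0.0292% for CpG against Pam3CSK4, 3.92% for CpG against Poly(I:C) and 6.48% for Pam3CSK4 against Poly(I:C). The factor B difference was 0.88 without replicate 3 of every group and 1.15 without Pam3CSK4 acute replicate 3. Neither was called, and each rests on a lone Pam3CSK4 acute array. The factor B call was also lost without LPS acute replicate 1 (adjusted p = 0.0545) or 3 (0.0811). The C1qa differences were lost without LPS acute replicate 1 (0.104 for CpG and 0.0785 for Poly(I:C)) or 2 (0.0782 and 0.06), without CpG acute replicate 1 (0.0925) or 2 (0.102), and without Poly(I:C) acute replicate 1 (0.0737) or 2 (0.075).

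For the change from acute to re-stimulated cells, limma called 0 of 54 such tests, and the share of all probes called was 6.35% for LPS against CpG, 7.2% for LPS against Pam3CSK4, 3.61% for LPS against Poly(I:C), 0.00325% for CpG against Pam3CSK4, 0.0357% for CpG against Poly(I:C) and 0.101% for Pam3CSK4 against Poly(I:C). At an unadjusted p under 0.05 there was 1 (Cfp for CpG against Poly(I:C)). The factor B step on re-stimulation differed between ligands by -0.54 to 0.41, each with a standard error of 0.70 to 0.79, and a difference of that size was not detectable with these arrays. For C3, CpG and Poly(I:C) differed by -1.45 ± 0.74 (adjusted p = 0.519).

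Other complement genes were taken from a list of 48 symbols, of which 43 were on the array, 27 passed the filter on dim probes and 19 were called in at least 1 comparison. After acute LPS, 3 rose and 2 fell of 27 tested (13.2% of all probes called each way), with a median change of -0.22 (all probes -0.01). limma called 0 of 23 tested after acute CpG, Pam3CSK4 or Poly(I:C) (all probes 3.09% and 2.63%, 0% and 0%, and 3.8% and 2.23% called higher and lower). At an unadjusted p under 0.05 there were 2, 1 and 3 of these genes. Of all probes, 6477 of 27954, 3458 of 27843 and 6335 of 28426 were under it. Re-stimulation against acute raised 5 and lowered 8 of 26 with LPS (all probes 17.2% and 17%), and 1 and 5 of 23 with CpG (1.85% and 1.71%). With Pam3CSK4 it raised 0 and lowered 0 of 23 (0% each). In that comparison 9 of the genes and 3461 of 25430 probes had an unadjusted p under 0.05 in limma. With Poly(I:C), 2 rose and 4 fell of 24 (2.31% and 2.62%). The medians were -0.20, -0.22, -0.23 and -0.41, against -0.02, 0.06, 0.02 and 0 for all probes. Against naïve, re-stimulation raised 2 and lowered 3 of 24 with LPS (all probes 3.27% and 2.39%), 2 and 6 of 24 with CpG (6.65% and 6.45%), 1 and 3 of 25 with Pam3CSK4 (2.61% and 2.74%) and 3 and 4 of 24 with Poly(I:C) (4.79% and 4.23%). The medians were -0.13, -0.31, -0.21 and -0.38, against 0, 0.01, 0.03 and -0.04 for all probes.

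Among the proteases that C1q activates, C1s was at 4.09 ± 0.55 (SD, n = 3) in naïve cells, well above background on 1 array, and at 7.99 ± 0.57 (n = 2), 7.41 ± 0.98, 7.34 ± 0.72 and 5.99 ± 0.77 (n = 3 each) in cells re-stimulated with LPS, CpG, Pam3CSK4 and Poly(I:C). It was called higher against naïve with the first 3 of these ligands and against acute with LPS, CpG and Poly(I:C). C1ra rose against naïve by 2.16 with LPS (adjusted p = 0.0341), 1.60 with CpG (0.0234) and 1.48 with Poly(I:C) (0.0336), and C1rb rose against acute with LPS by 1.75 (0.00849). C1ra and C1rb are close copies, so their signals may be shared. C2, the classical pathway counterpart of factor B, rose with acute LPS by 1.04 (0.0267) and in Poly(I:C) re-stimulated against naïve cells by 2.22 (0.0104). C4b rose by 2.13 (0.023) in the latter comparison.

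Of the regulators, Cd55 and Daf2, a closely related gene pair of membrane regulators that shorten the life of convertases, rose after acute LPS by 5.69 (0.04) and 4.93 (0.0199) and fell on LPS re-stimulation by -4.27 (0.000736) and -4.45 (0.000213). Cd55 lay between 12.42 and 12.81 on the LPS acute arrays, all with a low neutrophil list mean. Groups that hold arrays with high and with low list means differed in their Cd55 spread. It lay between 4.28 and 10.73 in naïve cells, 5.30 and 11.60 after acute Poly(I:C) and 4.40 and 11.34 after Poly(I:C) re-stimulation. After acute CpG it lay between 8.36 and 12.44, and after acute Pam3CSK4 at 8.21 and 11.56. In CpG and Pam3CSK4 re-stimulated cells Cd55 stayed at 11.05 to 11.86 and 10.82 to 11.72. Daf2 lay between 10.50 and 10.74 on the LPS acute arrays and between 3.90 and 8.30 in naïve cells. The part of the neutrophil markers in these changes was not tested.

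Of the receptors, Itgax, a subunit of complement receptor 4, fell in all 4 re-stimulated groups against naïve, by -3.22 with LPS, -2.58 with CpG, -2.17 with Pam3CSK4 and -2.77 with Poly(I:C) (adjusted p from 0.00733 to 0.0219). Vsig4, which binds C3 fragments, fell against acute with CpG (-1.68, 0.0293) and Poly(I:C) (-2.05, 0.0213). Its re-stimulated means were dim, at 4.37 with CpG (2 of 3 arrays well above background) and 4.16 with Poly(I:C) (0 of 3). Gpr77, the second C5a receptor, fell with CpG re-stimulation against naïve (-2.13, 0.0439). Cd93 was called lower in 6 comparisons, by up to -2.07 with LPS re-stimulation against naïve (0.0381).

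Over the 9 group means, factor B and C3 had r = 0.915, factor B and C1qc r = -0.875, and factor B and Cfp r = 0.0251. The named genes (among 5283 or 5284 whose group means varied by an SD of at least 0.5) most like factor B were Ass1 (r = 0.983), which makes argininosuccinate, and Smpdl3b (0.977). Those most like C1qb were Cdkn3 (0.987) and C1qc (0.98), and those most like C1qc were Cenpa (0.981) and Tmem191c (0.966). For C1qa they were Sparc (0.92) and Gm10375 (0.917), and for C3 Gm6034 (0.976) and 4933432I03Rik (0.97). For C5ar1 they were Ptprj (0.946) and Rnf145 (0.933), for C3ar1 Hipk2 (0.911), for Cfp Inpp4b (0.939) and Scd2 (0.926), and for Serping1 AW112010 (0.953) and Il20rb (0.947). The 9 points share arrays and normalization.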

How the data were processed

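RNA of BMDMs was labelled with Cy3 and hybridised to 1-colour Agilent mouse arrays. The deposited scanner files give spot intensities, and the deposited value table gives log2 values that the authors background-corrected by RMA and quantile-normalized. The submitters' processing notes name limma and RMA. The log2 table was the main source, and its 2 columns of arrays that failed quality control were not used. Values remade here from the intensities differed from it by a median of 0.0355. limma (3.58.1 in R 4.3.3) was fitted to the 2 groups of each of the 12 comparisons, without a replicate block, on probes that the scanner marked well above background in 2 or more arrays of a compared group. Calls needed an adjusted p under 0.05 and a 1.5-fold change. Differences between ligands were contrasts in 1 fit of 9 groups. That fit takes 1 spread for all groups, so its p-values do not measure the spread of a single group. Figures used matplotlib 3.10.9.

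The members and gene lists were chosen with earlier results of these data known. Named were all 9 members, up to 12 other complement genes with the largest called change, and 2 genes per member with the most similar group means. Some of these genes are not reported here. Replicates are called biological in the study's methods. Alternatives were other background corrections and scalings, all 27 arrays, no filter, no minimum fold, any probe, the replicate number as a block, joint fits and leaving out arrays. In the CpG and Poly(I:C) comparisons and Pam3CSK4 re-stimulated against naïve, same-numbered arrays deviated together (r = 0.12 to 0.48 over probes, with the number also marking the slide), and in those with LPS by 0.01 to 0.12. With 2 Pam3CSK4 acute arrays, r was 0.50 to 0.53 for acute against naïve and 0.27 for re-stimulated against acute. The number of arrays limits the precision. The fit was tested on simulated data.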

Additional observations from a re-analysis of the deposited data

How the results depend on the processing

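Of 18 called member changes in the 12 comparisons, 5 held under every alternative tried (Cfb with LPS acute, with LPS and CpG re-stimulated against acute, and with CpG and Poly(I:C) re-stimulated against naïve) and 13 were lost under at least 1. The direction turned for 1, C1qc in CpG re-stimulated against naïve, from -0.91 to 0.40 with scaling to array medians. Median scaling moved the median change of all probes to 0.11 to 0.78 over the comparisons (as reported -0.10 to 0.06) and the share of calls that were higher to 57.6 to 92.3% (as reported 46.9 to 63.0%). The 75th percentile scaling gave 43.2 to 54.5%, and all 27 arrays 42.7 to 69.0%. Counts of called members below run in the order LPS, CpG, Pam3CSK4, Poly(I:C) where 4 are given. For acute against naïve, as reported 6, 1, 0 and 1, median scaling gave 2, 2, 1 and 2, and normexp with quantiles 2 for CpG. No filter on dim probes gave 3 for LPS. The fit of all 9 groups gave 3, 1 and 3 for CpG, Pam3CSK4 and Poly(I:C), and with the slide as a random block 3, 2 and 3. For re-stimulated against acute, as reported 2, 1, 0 and 1, median scaling gave 1 for Pam3CSK4 and 2 for Poly(I:C), and normexp 2 for Poly(I:C). All 27 arrays gave 1 for LPS. The fit of 9 groups gave 1 for LPS, 1 for Pam3CSK4 and 3 for Poly(I:C), and with the slide block 1, 1 and 6. For re-stimulated against naïve, as reported 1, 2, 1 and 2, median scaling gave 2, 4, 2 and 2, normexp 4, 4 and 5 for the first 3 ligands, and the 75th percentile 2, 4 and 2. No filter gave 1 for CpG. The fit of 9 groups gave 6, 4, 6 and 6, and with the slide block 6, 5, 6 and 7. With the replicate number as a block (paired fit), the counts were 2 for Poly(I:C) re-stimulated against acute and 2, 2, 0 and 1 for re-stimulated against naïve, and for acute LPS 4. Same-numbered arrays deviated together at r = 0.12 to 0.48 in the CpG and Poly(I:C) comparisons and in Pam3CSK4 re-stimulated against naïve. In those with LPS r was 0.01 to 0.12. With 2 Pam3CSK4 acute arrays, it was 0.50 to 0.53 for acute against naïve and 0.27 for re-stimulated against acute. The number also marks the slide outside LPS acute, so these values cannot show whether the cultures were paired. Leaving out 1 array, or replicate 3 of every group (chosen after seeing the data), gave 2 to 8, 0 to 2, 0 to 2 and 0 to 2 acute members, 1 to 2, 1 to 2, 0 to 1 and 0 to 6 on re-stimulation against acute, and 0 to 4, 1 to 5, 1 to 6 and 1 to 7 against naïve. Acute ligand differences called ranged from 0 to 7 (as reported 3) and re-stimulation ones from 0 to 9 (as reported 0). Where changes of setting altered a call, the cause was not tested.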
